A study of Homo sapiens with 32 samples.

Results

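Described here are 7 of the 23073 genes in a table of RNA-seq expression values from 2 acute myeloid leukaemia cell lines. They are the RUNX transcription factor genes RUNX1, RUNX2 and RUNX3, their shared partner CBFB, the fusion partner gene RUNX1T1, and POU4F1 and CCNA1, which are known for high expression in leukaemia with the t(8;21) translocation. Members were taken by gene symbol, and all 7 were found. Kasumi-1 and SKNO-1 are established human lines that carry t(8;21). Cultures of both lines received RN-1, GSK690, GSK690* or the solvent DMSO, and RNA was taken after 24 or 72 h, with 2 biological replicates in each of the 16 groups (32 libraries). RN-1 is an irreversible and GSK690 a reversible inhibitor of the histone demethylase KDM1A, GSK690* is described by the submitters as the inactive isomer of GSK690, and the stated compound dose was 1 µM. The treatment protocol gives that dose for RN-1 and GSK690, and the titles give it for all 3 compounds. SKNO-1 was grown with GM-CSF and with less serum than Kasumi-1, so line and culture medium cannot be told apart. The titles give 72 h for the later SKNO-1 libraries, where the treatment protocol gives 4 days. Each line stands for 1 patient's leukaemia grown in culture.

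RUNX proteins bind DNA through a Runt domain, and CBFB, which does not bind DNA itself, stabilises that binding. The t(8;21) fusion joins the Runt domain of RUNX1 to most of RUNX1T1 (also called ETO), which brings in co-repressors and histone deacetylases, while RUNX1 from the intact allele is still made. KDM1A removes methyl groups from lysine 4 of histone H3 and acts in repressor complexes with GFI1 and GFI1B. The RUNX1 and RUNX1T1 values are sums over a gene, so fusion and normal transcripts are mixed in both.

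RUNX genes are known for regulating one another, and each has a distal and a proximal promoter. The promoter entries of RUNX2 and RUNX3 are shown because these genes differed most between the lines among the RUNX genes and because RUNX2 was the RUNX gene that rose with the inhibitors. RefSeq promoters (GRCh38.p14, 250 bases before to 50 after a start site) were matched for 5 of the 7 genes, with 7 entries in all. Capitals mark the RUNX core TGTGGT or its variant TGCGGT on either strand, so that ACCACA is TGTGGT read on the other strand. The sequences run 5′ to 3′ on the gene's strand.
RUNX2 upstream start, chr6:45328080-45328379, plus strand: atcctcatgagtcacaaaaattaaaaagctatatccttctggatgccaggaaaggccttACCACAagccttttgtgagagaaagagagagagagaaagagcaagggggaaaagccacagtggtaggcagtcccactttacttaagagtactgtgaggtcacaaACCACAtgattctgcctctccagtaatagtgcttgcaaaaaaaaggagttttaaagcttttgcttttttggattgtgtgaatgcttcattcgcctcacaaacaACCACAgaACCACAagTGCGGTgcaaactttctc
RUNX2 downstream start, chr6:45422025-45422324, plus strand: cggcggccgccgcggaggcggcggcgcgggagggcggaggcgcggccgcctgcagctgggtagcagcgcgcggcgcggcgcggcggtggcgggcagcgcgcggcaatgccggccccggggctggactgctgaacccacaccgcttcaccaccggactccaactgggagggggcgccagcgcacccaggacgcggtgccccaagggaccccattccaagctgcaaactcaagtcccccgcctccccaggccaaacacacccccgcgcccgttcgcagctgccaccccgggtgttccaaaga
RUNX3 upstream start, chr1:24964961-24965260, minus strand: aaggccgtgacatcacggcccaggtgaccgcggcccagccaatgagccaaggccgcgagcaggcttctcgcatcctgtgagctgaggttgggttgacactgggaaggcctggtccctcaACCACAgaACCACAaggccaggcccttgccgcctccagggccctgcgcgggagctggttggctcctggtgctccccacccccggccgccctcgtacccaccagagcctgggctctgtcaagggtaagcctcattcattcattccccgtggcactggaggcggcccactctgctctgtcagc
RUNX3 downstream start, chr1:24930227-24930526, minus strand: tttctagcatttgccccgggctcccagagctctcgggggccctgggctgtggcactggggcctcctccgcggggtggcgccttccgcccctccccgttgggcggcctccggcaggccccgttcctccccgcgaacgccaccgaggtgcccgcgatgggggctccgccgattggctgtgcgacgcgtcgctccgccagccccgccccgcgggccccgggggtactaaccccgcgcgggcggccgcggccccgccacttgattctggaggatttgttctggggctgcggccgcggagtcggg
The upstream RUNX2 entry held 4 matches to TGTGGT, which began at positions -191, -87, 17 and 25, and 1 match to TGCGGT at position 33, with the first transcribed base counted as 1 and the base before it as -1. The upstream RUNX3 entry held 2 matches to TGTGGT, at -131 and -123. Neither downstream entry held a match, nor did the entries of RUNX1, CCNA1 and POU4F1. RUNX1 had a single entry, so its distal and proximal promoters were not both searched. Of 35116 RefSeq promoters of the same length, 13.1% held TGTGGT, 7.29% held TGCGGT and 19.6% held at least 1 of them. The core AATCAC bound by GFI1 was also searched on both strands. It was found in the RUNX1 entry at -92 and in 10.2% of all promoters. A match is a run of letters and not a measured binding site, and the expression values do not separate transcripts from different starts of a gene.

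Values are FPKM, fragments scaled to transcript length and to the size of the library, which allow levels of different genes to be set side by side. No count table was used here, which leaves depth unknown, and no counting error is given. FPKM summed to between 332648 and 395945 per library, and the r across genes between replicates was 0.986 to 0.996. For the 16 libraries at 72 h a deposited sample table gives the other line's name, and the GEO titles were followed. Under these titles the mean r of a 72 h library was 0.974 to 0.986 with 24 h libraries of the same line and 0.848 to 0.870 with those of the other. MPO, the granule enzyme that marks myeloid cells, stood at 2190 to 6612 FPKM in Kasumi-1 and 1218 to 2816 in SKNO-1. CD34, a progenitor surface marker, stood at 63.9 to 245 FPKM in Kasumi-1 but at 0.117 to 4.64 in SKNO-1. EPCAM, an epithelial surface marker, stood at 61.0 to 83.5 FPKM in Kasumi-1 and at 0.219 or less in SKNO-1. COL1A1, COL1A2, COL3A1 and KRT8, found with EPCAM on the adherent cell list, stood at 0.197 FPKM or less in every library. The B cell list summed to 7.37 to 13.4 FPKM in Kasumi-1 and 35.8 to 63.7 in SKNO-1, where CD79B alone held 34.1 to 61.1. The T and NK cell and erythroid marker lists summed to 1.01 FPKM or less in every library.

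RUNX1 was the most abundant of the 7 genes in both lines, followed by CBFB and RUNX1T1. In Kasumi-1 the lowest, median and highest of 16 libraries were 52.4, 65.1 and 79.7 FPKM for RUNX1, 40.0, 46.0 and 61.9 for CBFB, and 32.5, 44.2 and 53.5 for RUNX1T1. In SKNO-1 the same values were 46.2, 55.3 and 68.7 FPKM for RUNX1, 41.7, 50.4 and 64.3 for CBFB, and 21.2, 24.9 and 32.4 for RUNX1T1. The ranges of RUNX1 and CBFB overlapped in both lines, and those of CBFB and RUNX1T1 in Kasumi-1 only. The 2 other RUNX genes stood lower, RUNX3 with a median of 5.89 FPKM in Kasumi-1 and 21.4 in SKNO-1, and RUNX2 with 5.54 and 13.5. In Kasumi-1 the ranges of RUNX2 (3.53 to 7.80 FPKM) and RUNX3 (4.22 to 8.34) lay almost on top of each other, and in SKNO-1 RUNX3 (14.1 to 33.5) overlapped RUNX2 (11.0 to 15.9) at its lower end. CCNA1 had a median of 0.165 FPKM in Kasumi-1 and 4.52 in SKNO-1, and POU4F1 of 0.168 and 1.20, so that the 2 genes overlapped in Kasumi-1 and did not in SKNO-1, where CCNA1 was at 3.47 FPKM or more and POU4F1 at 2.10 or less.

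**Figure D1:**
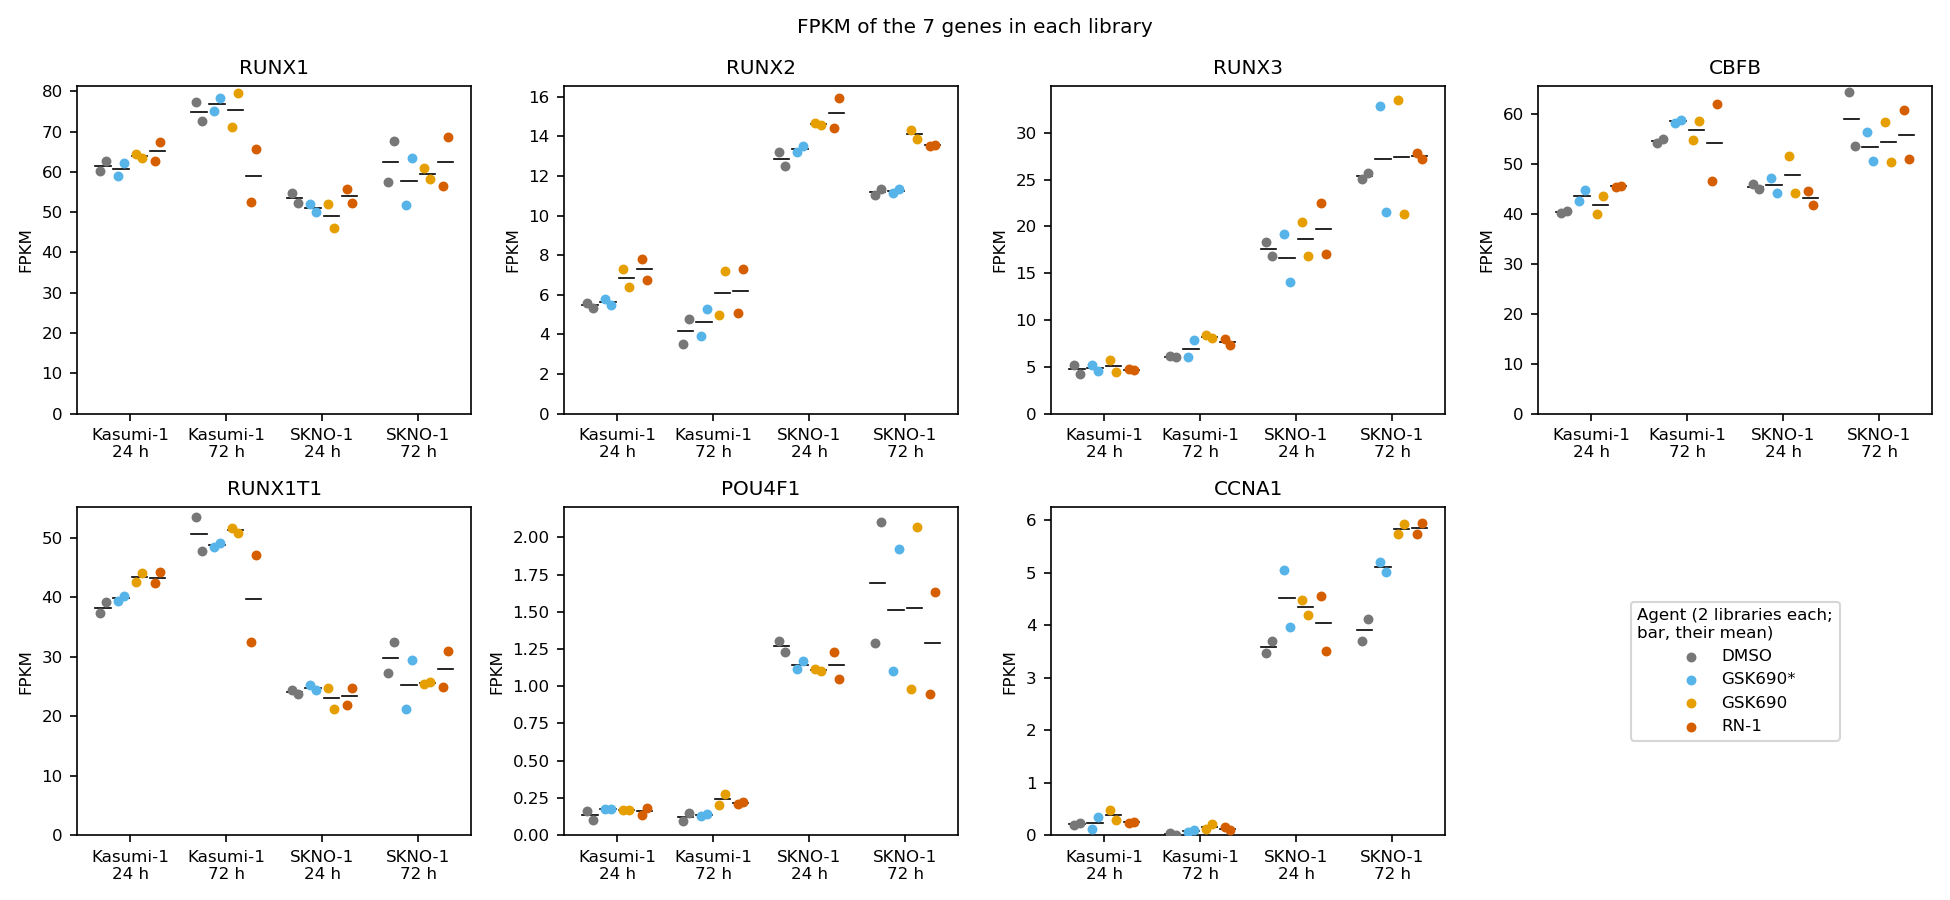
FPKM of each of the 7 genes (y axis, linear, from 0) in every library, by line and time (x axis) and coloured by agent; points are single libraries and bars the mean of 2. RUNX2 points of RN-1 and GSK690 lie above those of DMSO and GSK690* in 3 of the 4 sets, and POU4F1 and CCNA1 are near 0 in Kasumi-1.

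The gene loci are given here in hg19, the build named in the submitters' processing notes. RUNX1 (ENSG00000159216) lies at chr21:36160097-37357047, RUNX2 (ENSG00000124813) at chr6:45295893-45632086 and RUNX3 (ENSG00000020633) at chr1:25226001-25291612. CBFB (ENSG00000067955) lies at chr16:67063018-67134961, RUNX1T1 (ENSG00000079102) at chr8:92967202-93115514, POU4F1 (ENSG00000152192) at chr13:79172496-79177673 and CCNA1 (ENSG00000133101) at chr13:37005966-37017019. The RUNX2 locus overlaps that of SUPT3H, a subunit gene of histone acetyltransferase complexes. All 7 genes passed the filter on low values (at least 1 FPKM in at least 2 libraries, which kept 11890 genes). POU4F1 reached 1 FPKM in 14 libraries and CCNA1 in 16, all of them SKNO-1, so that both passed only through the line in which they are high.

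The first comparison asked which of the 7 genes changed with KDM1A inhibition. In each set of line and time the 4 libraries of RN-1 and GSK690 were compared with the 4 of DMSO and GSK690*, by limma on log2(FPKM + 1) across all genes, 2-sided, with Benjamini-Hochberg adjustment over all genes tested and a threshold of 0.05 for adjusted p. RUNX2 rose in Kasumi-1 at 72 h and CCNA1 in SKNO-1 at 72 h. No other member passed in any set. The count of members that passed was 0 of 7 in Kasumi-1 at 24 h, where 20.9% of all genes tested passed, and 1 of 7 in Kasumi-1 at 72 h, against 25.7%. It was 0 of 7 in SKNO-1 at 24 h, against 9.08%, and 1 of 7 in SKNO-1 at 72 h, against 11.1%. These shares are near or below the background. At an unadjusted p under 0.05 there was 1 member in Kasumi-1 at 24 h and 0 in SKNO-1 at 24 h. The median log2 change of the 7 genes was 0.08, 0.12, -0.01 and 0.03 in the same order, beside medians of all genes between -0.02 and -0.01.

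RUNX2, the RUNX factor best known from bone formation, had values in Kasumi-1 at 24 h of 5.59 and 5.35 FPKM with DMSO, 5.79 and 5.49 with GSK690*, 7.31 and 6.41 with GSK690, and 7.80 and 6.76 with RN-1. All 4 inhibitor libraries lay above all 4 controls there. In Kasumi-1 at 72 h the values were 3.53 and 4.76 FPKM with DMSO, 3.91 and 5.30 with GSK690*, 4.95 and 7.19 with GSK690, and 5.08 and 7.32 with RN-1. Here the sides overlapped, since the GSK690* library of replicate 2 lay above the GSK690 and RN-1 libraries of replicate 1, while among the libraries of either replicate number both inhibitors lay above both controls. At 24 h in SKNO-1 they were 13.2 and 12.5 FPKM with DMSO, 13.2 and 13.5 with GSK690*, 14.7 and 14.6 with GSK690, and 14.4 and 15.9 with RN-1. At 72 h in SKNO-1 they were 11.0 and 11.4 FPKM with DMSO, 11.1 and 11.4 with GSK690*, 14.3 and 13.9 with GSK690, and 13.5 and 13.6 with RN-1. In both SKNO-1 sets every inhibitor library was above every control. The inhibitor libraries were thus all above the controls in 3 of 4 sets, and the share of all genes whose inhibitor libraries lay all above or all below the controls was 32.6% in Kasumi-1 at 24 h, 15.2% in SKNO-1 at 24 h and 15.2% in SKNO-1 at 72 h.

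The log2 change of RUNX2 was 0.30 ± 0.11 (SE) in Kasumi-1 at 24 h (adjusted p = 0.0505) and 0.40 ± 0.11 in Kasumi-1 at 72 h (adjusted p = 0.00788, limma). In SKNO-1 it was 0.17 ± 0.11 at 24 h (adjusted p = 0.343) and 0.28 ± 0.11 at 72 h (adjusted p = 0.0952). These correspond to 1.23-fold, 1.32-fold, 1.13-fold and 1.21-fold on the FPKM + 1 scale. The call in Kasumi-1 at 72 h was lost without DMSO replicate 1 (log2 change 0.32, adjusted p = 0.0618), GSK690* replicate 1 (0.31, 0.0622), RN-1 replicate 2 (0.29, 0.0545) or GSK690 replicate 2 (0.29, 0.0692), and in fits on that set's 8 libraries alone (adjusted p = 0.120 with 4 groups and 0.0729 with 2). In Kasumi-1 at 24 h the call was gained when libraries were scaled by the median of ratios (0.33, adjusted p = 0.0379) and in fits on that set's 8 libraries alone (0.0237 and 0.00967). It was also gained in SKNO-1 at 72 h in the fit of the 8 libraries as 2 groups (adjusted p = 0.0282). With a replicate block in limma, RUNX2 passed in all 4 sets (adjusted p = 0.000351, 1.32e-05, 0.0289 and 0.000982, in the order above). The labels name no shared source for same-numbered libraries, so pairing was not assumed.

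The contrast was also averaged over the 4 sets, an addition made after the RUNX2 values were seen. RUNX2 changed by 0.29 ± 0.05 on the log2 scale (adjusted p = 0.000144) and CCNA1 by 0.15 ± 0.04 (adjusted p = 0.00584), so that 2 of 7 members passed where 50.7% of all genes did. The mean change of RUNX2 ran from 0.26 to 0.32 when each of the 32 libraries was left out, with the call made each time. The CCNA1 call was lost with quantile normalization (0.08, adjusted p = 0.100). The other 5 members had mean changes from -0.03 to 0.12, none of which passed, and the lowest adjusted p among them was 0.147 (RUNX3).

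SUPT3H, which shares part of its locus with RUNX2, moved with the inhibitors in Kasumi-1 as well. Its FPKM was 2.26 to 3.52 in the controls and 3.55 to 4.97 with inhibitors at 24 h, and 2.37 to 4.06 and 4.03 to 5.33 at 72 h. Its log2 change was 0.43 (adjusted p = 0.0473) and 0.51 (adjusted p = 0.0158). In SKNO-1 the SUPT3H change was -0.02 (adjusted p = 0.960) at 24 h and 0.17 (adjusted p = 0.504) at 72 h. Only the spans of the 2 loci were compared, and not their exons. The strand setting of the counting is not given in the sources used here. Whether reads from the shared part enter both values was not tested. The summed FPKM of the 8 monocyte markers also moved with the inhibitors, from 11.0 to 30.8 up to 102 to 158 in Kasumi-1 at 24 h, from 10.8 to 21.4 up to 63.5 to 92.1 in Kasumi-1 at 72 h, from 35.5 to 55.6 up to 84.8 to 141 in SKNO-1 at 24 h, and from 39.7 to 57.9 up to 114 to 153 in SKNO-1 at 72 h. Within that list LYZ, the lysozyme gene, reached 151 FPKM in Kasumi-1 and 152 in SKNO-1, CD14 stayed between 0 and 0.262, and 3 to 5 of the 8 markers were under 0.1 FPKM in all libraries of a side. The summed B cell list went from 7.70 to 10.6 up to 11.3 to 12.1 FPKM in Kasumi-1 at 24 h and from 7.37 to 8.51 up to 9.42 to 13.4 at 72 h, without overlap, and the sides overlapped in SKNO-1, while MS4A1 of that list was at 0 in every library. The part of these lists in the RUNX2 and CCNA1 values was not tested, and in such cultures more cells of a kind and more RNA per cell cannot be told apart.

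**Figure D2:**
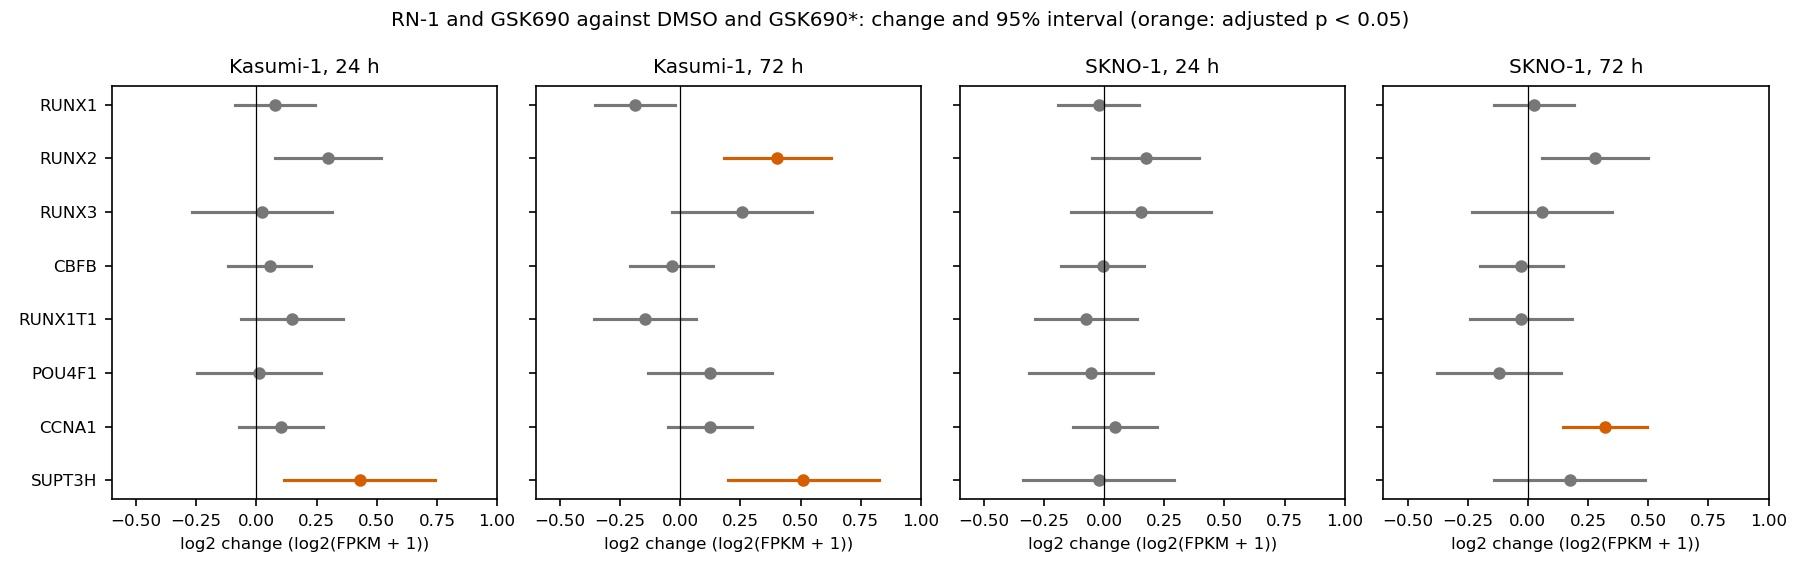
Change with RN-1 and GSK690 against DMSO and GSK690* (x axis, difference of log2(FPKM + 1)) for the 7 genes and SUPT3H in each line and time, from 4 against 4 libraries; bars are 95% intervals from limma and orange marks an adjusted p under 0.05. RUNX2 lies right of 0 in all 4 panels with changes of 0.17 to 0.40, and CBFB stays within 0.06 of 0.

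RUNX1, the factor at the translocation breakpoint, did not pass in any set. In Kasumi-1 at 24 h its 8 values ran from 59.0 to 67.5 FPKM. In Kasumi-1 at 72 h it stood at 77.3 and 72.7 FPKM with DMSO, 75.2 and 78.4 with GSK690*, 71.1 and 79.7 with GSK690, and 52.4 and 65.8 with RN-1. Both RN-1 libraries were below all others of that set. The GSK690 libraries lay on either side of the controls, which held 72.7 to 78.4 FPKM. RN-1 replicate 1 had a mean r across genes of 0.982 with the rest of its set. The other libraries of that set had 0.986 to 0.989. The log2 change over both inhibitors was -0.19 ± 0.08 (adjusted p = 0.0899), -0.11 (adjusted p = 0.366) without RN-1 replicate 1, and -0.27 (adjusted p = 0.0211) without RN-1 replicate 2. In SKNO-1 the changes were -0.02 (95% interval -0.19 to 0.14) and 0.03 (-0.14 to 0.19).

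RUNX1T1, the partner gene that supplies most of the fusion protein, did not pass in any set. In Kasumi-1 at 24 h the controls held 37.3, 39.2, 39.3 and 40.3 FPKM and the inhibitor libraries 42.3, 44.3, 42.6 and 44.1. The sides did not overlap, as for 32.6% of all genes in that set. The log2 change of 0.15 ± 0.10 did not pass (adjusted p = 0.339, limma). It passed in the fits on those 8 libraries alone (adjusted p = 0.0343 with 4 groups and 0.0166 with 2). At 72 h the RN-1 libraries stood at 32.5 and 47.1 FPKM, the GSK690 libraries at 51.7 and 50.9, and the controls between 47.9 and 53.5. The change there was -0.15 (adjusted p = 0.316), -0.01 (adjusted p = 0.941) without RN-1 replicate 1, the library that was also lowest for RUNX1, and -0.28 (adjusted p = 0.0411) without RN-1 replicate 2. In SKNO-1 the changes were -0.08 (95% interval -0.29 to 0.14) at 24 h and -0.03 (-0.24 to 0.18) at 72 h.

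RUNX3, a RUNX factor known from T cells and neurons, and CBFB did not pass in any set either. RUNX3 had changes of 0.02, 0.26, 0.15 and 0.06, with the lowest adjusted p (0.187) in Kasumi-1 at 72 h, where inhibitor libraries held 7.35 to 8.34 FPKM and controls 6.02 to 7.85. In SKNO-1 at 72 h its 2 replicates stood apart within GSK690* (32.9 and 21.5 FPKM) and GSK690 (33.5 and 21.3), with the replicate 1 libraries higher. The 95% interval of RUNX3 there was -0.23 to 0.35. The joint fit gave RUNX3 the same standard error, 0.14, in all 4 sets. CBFB changed by 0.06, -0.03, -0.01 and -0.03. Its 95% intervals lay between -0.21 and 0.23 in all 4 sets.

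CCNA1 encodes cyclin A1, which is best known from meiosis in the testis and partners CDK2. In SKNO-1 at 72 h it stood at 3.70 and 4.12 FPKM with DMSO, 5.20 and 5.02 with GSK690*, 5.74 and 5.92 with GSK690, and 5.74 and 5.94 with RN-1. The 4 inhibitor libraries were above the 4 controls, and 15.2% of all genes were separated in either direction in that set. The GSK690* libraries lay between DMSO and the inhibitors. The DMSO and RN-1 libraries of replicate 1 carry another name prefix than the other 6 of that set. The log2 change was 0.32 ± 0.08 (adjusted p = 0.0152, limma). It was lost without DMSO replicate 1 (0.29, adjusted p = 0.0700) or RN-1 replicate 2 (0.31, adjusted p = 0.0531), with a pseudocount of 0.1 (0.38, adjusted p = 0.236) and in fits on those 8 libraries alone (adjusted p = 0.105 and 0.0974). In SKNO-1 at 24 h the values ran from 3.47 to 5.05 FPKM in controls and from 3.50 to 4.56 with inhibitors, and the change was 0.04 (adjusted p = 0.812). In Kasumi-1 CCNA1 stayed between 0 and 0.467 FPKM in every library, with changes of 0.10 and 0.12 that did not pass, while with a pseudocount of 0.1 the 72 h change was 0.74 (adjusted p = 0.00942).

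POU4F1, a homeodomain factor of sensory neurons, did not pass in any set. In Kasumi-1 at 72 h its control libraries held 0.0912, 0.150, 0.130 and 0.143 FPKM and its inhibitor libraries 0.211, 0.221, 0.203 and 0.278. The sides did not overlap, as for 28.7% of all genes in that set, at levels far below 1 FPKM, and the change was 0.12 ± 0.12 (adjusted p = 0.512). It passed in the fit of those 8 libraries as 2 groups of 4 (adjusted p = 0.0478). In SKNO-1 at 72 h POU4F1 ran from 0.946 to 2.10 FPKM, and each agent's replicate 2 was above its replicate 1. The SKNO-1 changes were -0.05 (adjusted p = 0.847) and -0.12 (adjusted p = 0.583).

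No difference of response between lines or times passed for any member. The differences between Kasumi-1 and SKNO-1 ran from -0.13 to 0.22 at 24 h and from -0.21 to 0.24 at 72 h, where 1.12% and 3.47% of all genes passed, with 0 members at an unadjusted p under 0.05. Between 72 and 24 h they ran from -0.29 to 0.23 in Kasumi-1 (0.202% of all genes passed) and from -0.10 to 0.28 in SKNO-1 (0% passed). At an unadjusted p under 0.05 there was 1 member in each line, RUNX1 in Kasumi-1 (-0.27, adjusted p = 0.896) and CCNA1 in SKNO-1 (0.28, adjusted p = 1). For RUNX2 the response in Kasumi-1 minus that in SKNO-1 was 0.13 (95% interval -0.19 to 0.44) at 24 h and 0.12 (-0.19 to 0.44) at 72 h.

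The compounds were then compared in pairs, 2 libraries against 2, at the same time, with 28 member tests for each pair (7 genes in 4 sets). GSK690 against its isomer GSK690* gave 0 calls of 28, with changes from -0.11 to 0.33 and a lowest adjusted p of 0.178, and 1 test at an unadjusted p under 0.05, RUNX2 in Kasumi-1 at 72 h (0.33, 95% interval 0.02 to 0.64). In that pair 3.94%, 9.75%, 1.63% and 2.83% of all genes passed in Kasumi-1 (24 h, 72 h) and SKNO-1 (24 h, 72 h), in that order. GSK690* against DMSO gave 0 calls (0% of all genes in each set), and both tests at an unadjusted p under 0.05 were CCNA1 in SKNO-1, which was higher with GSK690* by 0.26 at 24 h (95% interval 0.01 to 0.50) and by 0.32 at 72 h (0.07 to 0.56, adjusted p = 1).

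RN-1 against DMSO gave 3 calls of 28, where 9.08%, 12.1%, 2.25% and 3.47% of all genes passed in the same order of sets. RUNX1 was lower with RN-1 in Kasumi-1 at 72 h (-0.35, adjusted p = 0.0496) and RUNX2 higher (0.48, adjusted p = 0.0413). CCNA1 was higher in SKNO-1 at 72 h (0.48, adjusted p = 0.0248). Each of these depended on single libraries. Leaving out 1 library moved the RUNX1 change between -0.51 and -0.19, the RUNX2 change between 0.25 and 0.70 and the CCNA1 change between 0.42 and 0.54. The RUNX1 call was lost without DMSO replicate 1 (adjusted p = 0.277), DMSO replicate 2 (0.094) or RN-1 replicate 1 (0.442). The RUNX2 call was lost without DMSO replicate 1 (adjusted p = 0.422) or RN-1 replicate 2 (0.327), and the CCNA1 call without DMSO replicate 1 (0.241), RN-1 replicate 1 (0.0925) or RN-1 replicate 2 (0.159). With quantile normalization the RUNX1 call (-0.37, adjusted p = 0.0798) and the RUNX2 call (0.39, adjusted p = 0.0824) were lost, and so they were with scaling by the median of ratios (-0.34, adjusted p = 0.0621, and 0.48, adjusted p = 0.0520). With a pseudocount of 0.1 the RUNX1 call (-0.35, adjusted p = 0.0522) and the CCNA1 call (0.57, adjusted p = 0.375) were lost. That pseudocount added a call of CCNA1 in Kasumi-1 at 72 h (0.88, adjusted p = 0.0466).

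RN-1 against GSK690, the irreversible against the reversible inhibitor, gave 0 calls of 28. In these contrasts 0% of all genes passed in 3 sets and 0.00841% in Kasumi-1 at 72 h. RUNX1 (-0.35, 95% interval -0.59 to -0.12, unadjusted p = 0.00532 by limma) and RUNX1T1 (-0.38, -0.68 to -0.08, unadjusted p = 0.0151 by limma) were lower with RN-1 in Kasumi-1 at 72 h, both with an adjusted p of 0.676. The RN-1 libraries there held 52.4 and 65.8 FPKM of RUNX1 and the GSK690 libraries 71.1 and 79.7. All other RN-1 minus GSK690 differences lay at an unadjusted p above 0.05, which does not show that the inhibitors act alike.

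Ratios within a library do not depend on its scaling and were compared over 4 against 4 libraries with the exact permutation test, 2-sided, for 16 comparisons (4 ratios in 4 sets). The ratio of RUNX1T1 to RUNX1 FPKM, which follows the balance of fusion partner to RUNX1 reads, was 0.639 ± 0.022 (SD, n = 4) in controls and 0.671 ± 0.017 with inhibitors in Kasumi-1 at 24 h. At 72 h it was 0.655 ± 0.028 and 0.675 ± 0.054. In SKNO-1 it was 0.468 ± 0.022 and 0.451 ± 0.038 at 24 h and 0.456 ± 0.033 and 0.438 ± 0.014 at 72 h. The exact permutation p was 0.0857, 0.571, 0.571 and 0.343, and none of the 4 differences passed. Of the summed FPKM of the 3 RUNX genes, RUNX2 made up 7.78% ± 0.38 (SD, n = 4) in controls and 9.25% ± 0.85 with inhibitors in Kasumi-1 at 24 h, and 5.03% ± 0.85 and 7.58% ± 1.32 at 72 h. In SKNO-1 the RUNX2 share was 15.9% ± 1.0 and 17.5% ± 1.6 at 24 h, and 11.5% ± 0.4 and 13.6% ± 1.0 at 72 h. In 3 of 4 sets the 4 inhibitor libraries had a larger RUNX2 share than the 4 controls (exact permutation p = 0.0286, the smallest that 4 against 4 allows, and 0.152 after adjustment over the 16), and in SKNO-1 at 24 h they overlapped (exact permutation p = 0.2). The RUNX2 FPKM itself separated in SKNO-1 at 24 h and overlapped in Kasumi-1 at 72 h. There the shares separated narrowly, at 5.87% in GSK690 replicate 1 and 5.79% in GSK690* replicate 2. RUNX1 stood at 71.1 and 78.4 FPKM in these libraries. The RUNX3 share and the ratio of CBFB to the RUNX sum had exact permutation p-values of 0.0571 or more.

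**Figure D3:**
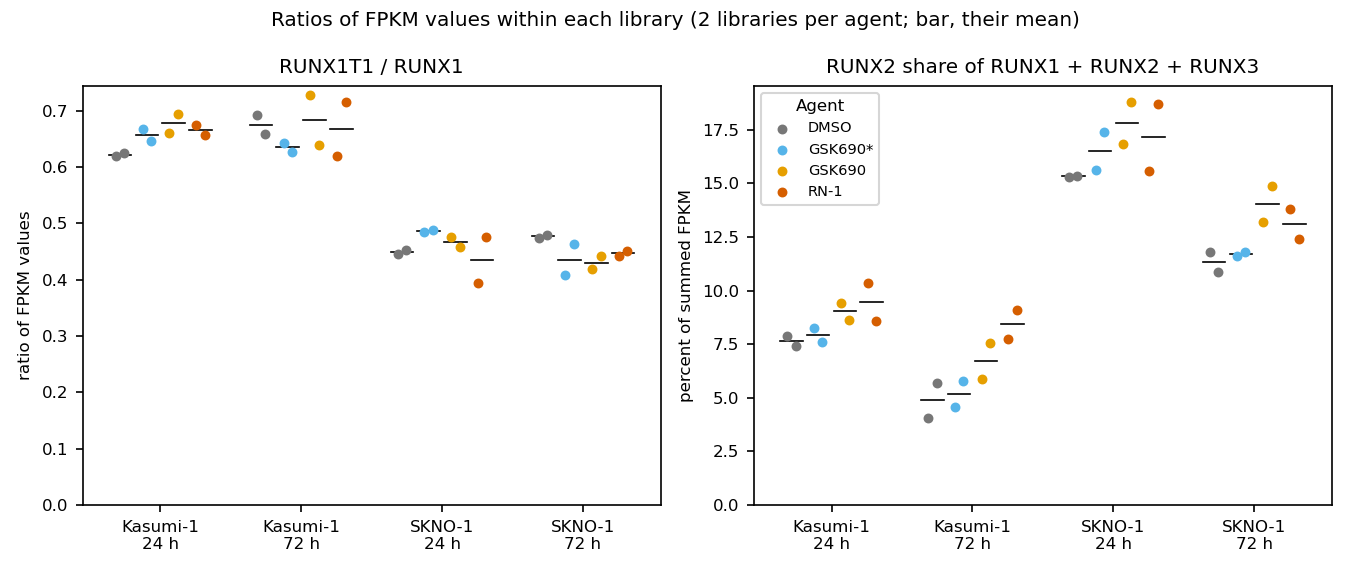
Left, FPKM of RUNX1T1 divided by that of RUNX1; right, RUNX2 as a percent of the summed FPKM of RUNX1, RUNX2 and RUNX3 (both y axes linear, from 0), in each library by line, time and agent; bars are means of 2. The left ratio lies between 0.619 and 0.727 in Kasumi-1 and between 0.395 and 0.489 in SKNO-1, and the RUNX2 share is larger with both inhibitors than with both controls in 3 of the 4 sets. These include Kasumi-1 at 72 h, where the RUNX2 FPKM overlapped.

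Without inhibitor the 2 lines differed at 6 of the 7 genes. RUNX1 and RUNX1T1 were higher in Kasumi-1, while RUNX2, RUNX3, POU4F1 and CCNA1 were lower, and CBFB did not pass. At 24 h 6 of 7 passed where 69.1% of all genes did, and at 72 h 6 of 7 where 70.8% did, so the count is close to the background. POU4F1 and CCNA1 had passed the filter on low values only through SKNO-1, and their differences therefore add nothing to it. In the controls at 24 h, mean FPKM in Kasumi-1 and SKNO-1 was 61.1 ± 1.8 and 52.3 ± 2.0 (SD, n = 4) for RUNX1, 39.0 ± 1.3 and 24.4 ± 0.6 for RUNX1T1, and 41.9 ± 2.1 and 45.5 ± 1.3 for CBFB. It was 5.55 ± 0.18 and 13.1 ± 0.4 for RUNX2, and 4.78 ± 0.48 and 17.1 ± 2.3 for RUNX3. CCNA1 had 0.220 ± 0.098 and 4.05 ± 0.70 FPKM, and POU4F1 0.154 ± 0.037 and 1.21 ± 0.08.

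On the log2 scale the difference, Kasumi-1 minus SKNO-1, was -1.64 ± 0.14 (SE) for RUNX3 at 24 h (adjusted p = 6.97e-10) and -1.85 ± 0.14 at 72 h, and -1.11 ± 0.11 (adjusted p = 5.39e-09) and -1.20 ± 0.11 for RUNX2. RUNX1T1 was higher by 0.65 ± 0.10 (adjusted p = 7.04e-06) and 0.84 ± 0.10, and RUNX1 by 0.22 ± 0.08 (adjusted p = 0.0186) and 0.34 ± 0.08. CBFB differed by -0.12 (95% interval -0.29 to 0.06) and 0.01 (-0.16 to 0.19). The RUNX1 call at 24 h was lost without replicate 2 of DMSO or GSK690* in either line, with adjusted p up to 0.0595. For the genes near 0 the size depended on the pseudocount. CCNA1 differed by -2.04 and -2.39 with a pseudocount of 1 and by -3.73 and -5.03 with 0.1, and POU4F1 by -0.93 and -1.19 with 1 and by -2.37 and -2.86 with 0.1.

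**Figure D4:**
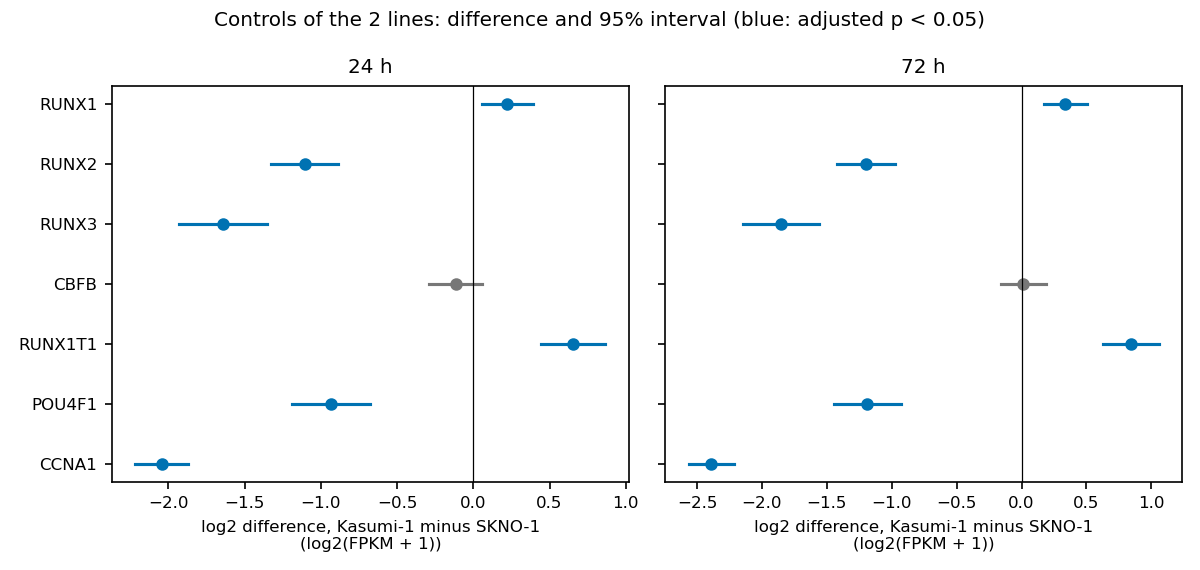
Difference of log2(FPKM + 1), Kasumi-1 minus SKNO-1 (x axis), in the DMSO and GSK690* libraries at 24 h (left) and 72 h (right), 4 against 4; bars are 95% intervals from limma and blue marks an adjusted p under 0.05. RUNX1 and RUNX1T1 lie right of 0, CBFB at 0, and RUNX2, RUNX3, POU4F1 and CCNA1 left of it.

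The libraries of 24 and 72 h carry different name prefixes, so time and library series cannot be told apart. In SKNO-1 at 72 h, 2 libraries (DMSO and RN-1 of replicate 1) carry another prefix than the other 6. Between 24 and 72 h the controls of both lines shifted as a whole. The median log2 difference over all genes was 0.22 in Kasumi-1 and 0.20 in SKNO-1. Against that shift, RUNX2 passed as lower in Kasumi-1 under every scaling run, and in SKNO-1 under the scalings that removed the shift. The RUNX2 change was -0.30 (adjusted p = 0.0241) in Kasumi-1 and -0.21 (adjusted p = 0.119) in SKNO-1 as deposited. It was -0.49 (adjusted p = 0.00225) and -0.42 (adjusted p = 0.0145) with quantile normalization, and -0.50 (0.00304) and -0.42 (0.0203) with scaling by the median of ratios, which brought the all-gene median to between 0.0027 and 0.012. The call as deposited in Kasumi-1 was lost without replicate 1 of DMSO or GSK690* at either time (adjusted p up to 0.144). RUNX1 (0.31), RUNX1T1 (0.34), RUNX3 (0.37) and CBFB (0.42) were higher at 72 h in Kasumi-1, and RUNX3 (0.58) and CBFB (0.29) in SKNO-1, in the values as deposited. None of these 6 passed under either scaling that removed the shift, and the RUNX3 call in Kasumi-1 was also lost without any 1 of the DMSO 72 h libraries, the GSK690* 72 h library of replicate 2 or the replicate 2 libraries of both agents at 24 h (adjusted p up to 0.131). CCNA1 fell in Kasumi-1 by 0.22 (adjusted p = 0.0314), a call lost without any 1 of the 4 libraries at 72 h or the 2 replicate 2 libraries at 24 h (adjusted p up to 0.168) and with quantile normalization (-0.22, adjusted p = 0.0555). It passed with the median of ratios (-0.25, adjusted p = 0.0317) and was larger with a pseudocount of 0.1 (-1.14, adjusted p = 0.000145). The Kasumi-1 controls held only 0.220 FPKM of CCNA1 on average at 24 h and 0.0438 at 72 h, so this change lies near 0 FPKM. As deposited, 6 of 7 members passed in Kasumi-1 and 2 of 7 in SKNO-1, against 52.1% and 45.2% of all genes. The count in Kasumi-1 includes CCNA1, which passed the filter on low values only through SKNO-1.

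The genes whose level followed a member most closely were read from 16 group means of log2(FPKM + 1), centred within each line, as a description in which groups share their library series and shift with time. RUNX2 was most like XAF1 (r = 0.956) and TMSB10 (0.927). The 3 genes nearest to RUNX1 were FBXW2 (0.929), CLASP1 (0.925) and RUNX1T1 (0.922), and RUNX1T1 was most like KAT6A (0.942). CBFB was nearest to SIN3A (0.981), RUNX3 to NAIF1 (0.974), POU4F1 to ATP6V0A1 (0.902) and CCNA1 to ZNF613 (0.889).

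Other genes of the pathway were counted by list in the comparison of inhibitors with controls, in the order Kasumi-1 (24 h, 72 h), SKNO-1 (24 h, 72 h). The lists were chosen with earlier results of these data known, so a share above that of all genes is not a test of a list. Of 19 genes of the fusion complex and its co-repressors, 0, 1, 0 and 0 rose and 2, 1, 1 and 1 fell, with medians from -0.07 to -0.05. Those that passed were 10.5%, 10.5%, 5.26% and 5.26% of the list, below the 20.9%, 25.7%, 9.08% and 11.1% of all genes. Of all genes, 9.69%, 13%, 5.64% and 6.91% rose and 11.2%, 12.7%, 3.44% and 4.16% fell in these sets, and these shares stand beside each list that follows. HDAC1, a histone deacetylase, fell in 3 sets, from 121 ± 6 to 109 ± 4 FPKM (SD, n = 4) in Kasumi-1 at 24 h (-0.15, adjusted p = 0.0477) and from 92.5 ± 4.1 to 78.9 ± 2.1 in SKNO-1 at 72 h (-0.23, adjusted p = 0.00667). In Kasumi-1 at 72 h the co-repressor NCOR1 fell (-0.27, adjusted p = 0.0230) and the adaptor LDB1 rose (0.28, adjusted p = 0.0446). Of 16 tested genes known to be high in t(8;21) leukaemia, 4, 4, 3 and 5 rose and 1, 2, 1 and 0 fell, with medians of 0.11, 0.10, 0.15 and 0.22, so that 31.2%, 37.5%, 25% and 31.2% of the list passed. Members of this list are 3 of the 7 genes described here. CD34 rose in all 4 sets, from 83.9 ± 15.5 to 223 ± 24 FPKM in Kasumi-1 at 72 h (1.41, adjusted p = 5.60e-05) and from 0.477 ± 0.189 to 3.41 ± 1.37 in SKNO-1 at 72 h (1.53, adjusted p = 4.12e-05). The chemokine receptor gene CXCR4 rose in SKNO-1 from 7.56 ± 0.66 to 12.5 ± 2.0 FPKM at 24 h (0.64, adjusted p = 0.000245). KIT, of the same list, fell in that set from 82.9 ± 3.7 to 64.6 ± 8.3 FPKM (-0.36, adjusted p = 0.0346).

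Of 20 tested genes repressed by the fusion or known as myeloid targets of RUNX1, 2, 4, 2 and 2 rose and 1, 5, 0 and 0 fell, with medians of 0.11, -0.00, 0.04 and 0.08, so that 15%, 45%, 10% and 10% of the list passed. CSF1R, the receptor of the macrophage growth factor M-CSF, rose from 1.83 ± 0.46 to 6.59 ± 0.62 FPKM in Kasumi-1 at 24 h (1.43, adjusted p = 2.13e-08) and from 3.49 ± 0.08 to 10.6 ± 2.0 at 72 h (1.36, adjusted p = 2.06e-08). The granule protease genes PRTN3 (-1.28, adjusted p = 0.0141) and CTSG (-0.79, adjusted p = 0.00496) fell in Kasumi-1 at 72 h. CSF1R is also 1 of the 8 monocyte markers. Of 13 tested transcription factors known to work with RUNX1, 4, 5, 3 and 3 rose and 0 fell in any set, with medians from 0.02 to 0.14, and 30.8%, 38.5%, 23.1% and 23.1% of the list passed. ERG, an ETS factor, rose by 0.57 to 0.71 and GFI1, which tethers KDM1A to DNA, by 0.45 to 0.63 in the 4 sets. GATA2 rose in SKNO-1 by 0.72 at 24 h (adjusted p = 0.0297) and by 0.86 at 72 h (adjusted p = 0.00696).

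Of 17 cell cycle genes that partner or resemble cyclin A1, 1, 2, 0 and 0 rose and 10, 6, 1 and 1 fell, with medians of -0.31, -0.14, -0.11 and -0.07. Of this list 64.7%, 47.1%, 5.88% and 5.88% passed, above the share of all genes in Kasumi-1 and below it in SKNO-1. CCNA2, the cyclin A of dividing cells, fell in Kasumi-1 from 27.7 ± 2.3 to 17.7 ± 1.0 FPKM at 24 h (-0.62, adjusted p = 0.000131), while CCNA1 was at 0.111 to 0.467 FPKM in those libraries. In SKNO-1 at 72 h, where CCNA1 rose, the gene of this list that fell was CDC25A, a phosphatase that activates CDKs (-0.26, adjusted p = 0.0496). Of 4 tested POU genes, including POU4F1, 0, 1, 0 and 1 rose and 0 fell, with medians of 0.01, 0.14, -0.01 and -0.08. POU2F2, a factor of B cells, rose at 72 h from 0.646 ± 0.150 to 1.75 ± 0.36 FPKM in Kasumi-1 (0.74, adjusted p = 0.00285) and from 1.07 ± 0.11 to 2.30 ± 0.71 in SKNO-1 (0.65, adjusted p = 0.0145).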

How the data were processed

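RNA of 32 cultures (16 groups of 2 biological replicates) was sequenced. The authors deposited 1 table of FPKM per gene and library with a table of gene symbols and hg19 loci. TopHat 1.4.1, Cufflinks and hg19 are named in the submitters' processing notes, and the annotation release, the strand setting and any further scaling are not given in the sources used here. Replicates are labelled biological, with no culture or day named, so p-values measure the spread between these libraries.

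A gene was kept where 2 or more libraries reached 1 FPKM (11890 of 23073), and log2(FPKM + 1) was fitted by limma 3.58.1 (R 4.3.3) as 16 group means, with eBayes variances that follow expression level (degrees of freedom: 16 residual, 5.23 prior). A fold change on this scale understates the change of genes near 1 FPKM and below. Tests were 2-sided, with Benjamini-Hochberg adjustment over the genes with values in each contrast (11882 to 11890), and no member lacked a value. No p adjusted over the members was used, although a plan had named one. Tables, exact tests and figures were made with Python 3.11.15, pandas 2.3.3, numpy 2.4.6, scipy 1.17.1 and matplotlib 3.10.9. The fit was tested on simulated data.

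All 7 genes are named in every comparison. From each of 6 lists, at most 3 genes per set could be named, those past the threshold ranked by size of change, and for each member the 3 genes with the highest r of group means. The members and lists were chosen with earlier results of these data known. Alternatives were a pseudocount of 0.1, no filter, scaling by the median of ratios, quantile normalization, fits on 8 libraries, a replicate block, a term for library name prefix, DMSO as the sole control, and each library left out in turn.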

Additional observations from a re-analysis of the deposited data

Results flagged for a closer look

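Of 56 groups of 4 libraries (7 genes, 4 sets, controls or inhibitors), 3 held 1 library whose gap to the nearest of the others passed the 95% critical value of Dixon's test, where chance gives about 1 in 20 groups. RUNX3 in the Kasumi-1 GSK690* library of replicate 2 at 72 h stood at 7.85 FPKM, beside 6.02 to 6.13 in the other 3 controls. RUNX2 in the SKNO-1 RN-1 library of replicate 2 at 24 h stood at 15.9 FPKM, beside 14.4 to 14.7 in the other inhibitor libraries. RUNX1T1 in the SKNO-1 RN-1 library of replicate 2 at 72 h stood at 31.0 FPKM, beside 24.9 to 25.7.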

How the results depend on the processing

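Depth is unknown, so counting error could not be set beside the spread of 2 libraries per group. In all settings run, RUNX2 kept a positive change with the inhibitors in all 4 sets (0.14 to 0.52) and CCNA1 in SKNO-1 at 72 h (0.24 to 0.48). The line differences of RUNX1T1, RUNX2 and RUNX3 passed in all 13 alternatives at each time. The cause of the changes given here was not tested.

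Members that passed with the inhibitors numbered 1 (RUNX2) in Kasumi-1 at 24 h with the median of ratios and 2 (RUNX1T1, RUNX2) in both 8-library fits. In Kasumi-1 at 72 h they numbered 2 with a pseudocount of 0.1 (RUNX2, CCNA1), 0 as 4 groups of 2, and 0 to 2 with 1 library left out. In SKNO-1 at 72 h they numbered 0 with a pseudocount of 0.1 or 4 groups of 2, and 0 to 1 with 1 library left out. Over the mean of the 4 sets 1 passed with quantile normalization.

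The counts of all genes that passed were 2479, 3052, 1080 and 1316 in Kasumi-1 (24 h, then 72 h) and SKNO-1 (24 h, then 72 h). As 4 groups of 2 in 8 libraries they were 160 and 400 in SKNO-1. As 2 groups of 4 they were 3832 in Kasumi-1 at 24 h and 491 and 799 in SKNO-1. With DMSO as the sole control SKNO-1 at 24 h had 668. With 1 library left out they ran from 1498 to 2095, 2022 to 2852, 387 to 1451 and 860 to 1602. The share of higher calls went from 46.5% to 58.4% in Kasumi-1 at 24 h and from 62.1% to 75.2% in SKNO-1 at 24 h with the median of ratios.

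Replicate numbers were shared by the groups, with no source named for them. Deviations of same-numbered libraries correlated with r of 0.133 to 0.450, 0.0432 to 0.481, 0.294 to 0.525 and 0.145 to 0.697 in the 4 sets. With only 2 numbers per group and no shared source in the labels, pairing was not assumed. With a replicate block 3733 genes passed in Kasumi-1 at 24 h, 2306 in SKNO-1 at 24 h and 2715 in SKNO-1 at 72 h, and members numbered 1 (RUNX2), 2 (RUNX1, RUNX2), 1 (RUNX2) and 2 (RUNX2, CCNA1). RUNX2 then had adjusted p of 0.000351, 1.32e-05, 0.0289 and 0.000982 in the 4 sets.

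Direction reversed for changes near 0, none of which had passed. With quantile normalization the values were -0.0286 (RUNX3) and -0.0597 (POU4F1) in Kasumi-1 at 24 h, 0.0162 (RUNX1), 0.0391 (CBFB) and -0.0106 (CCNA1) in SKNO-1 at 24 h, 0.0287 (CBFB) in SKNO-1 at 72 h, and 0.0217 (RUNX1), 0.0149 (RUNX1T1) and 0.0450 (CBFB) over the mean. With the median of ratios they were 0.00137 (RUNX1) and 0.0182 (CBFB) in SKNO-1 at 24 h and 0.0229 (CBFB) over the mean, and with a pseudocount of 0.1 0.0719 (POU4F1) over the mean. With DMSO as the sole control they were 0.0150 (CBFB) in Kasumi-1 at 72 h and -0.0333 (RUNX1) in SKNO-1 at 72 h. With 1 library left out RUNX3 ran from -0.0538 to 0.103 and POU4F1 from -0.00951 to 0.0324 in Kasumi-1 at 24 h, and CBFB from -0.136 to 0.0673 at 72 h. In SKNO-1 at 24 h RUNX1 ran from -0.0653 to 0.0200, CBFB from -0.0607 to 0.0493 and CCNA1 from -0.0318 to 0.120. At 72 h in SKNO-1 RUNX1 ran from -0.0461 to 0.0973, RUNX1T1 from -0.143 to 0.0841, RUNX3 from -0.0991 to 0.217, CBFB from -0.0925 to 0.0371 and POU4F1 from -0.280 to 0.0365. The line difference of CBFB at 72 h ran from -0.0518 to 0.0778.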
